A study of Mus musculus with 6 samples.

Results

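Cholesterol and fatty acid synthesis was followed through 33 genes, taken from 23420 gene rows of the count tables by an exact match of their symbols. They comprised 16 enzymes of cholesterol synthesis, 5 genes of the sterol-sensing SREBP system, 10 enzymes of fatty acid synthesis, elongation and desaturation, and 2 acyl-CoA synthetases. Both tables held all 33 genes, and all 33 had the required minimum of 10 counts over the libraries of a tissue. RNA was sequenced from the luminal layer of the uterus, cut out by laser microdissection, and from blastocysts flushed from the uterus, both at 8 pm on day 4 of pregnancy. Control females were Lif-floxed/floxed and received PBS. *Lif* eKO females were Lif-floxed/floxed with Ltf-Cre/+ and received PBS. Treated females had the eKO genotype and were injected with recombinant Lif (rLif), 20 µg per head, in the morning (10 am) and again at 6 pm, which was 2 h before collection. The blastocysts of all 3 groups were labelled Lif-floxed/+, so they differed by the genotype and treatment of the mother. *Ltf*-driven Cre acts in the uterine epithelium, so the stroma keeps its *Lif*. Each group was 1 library of RNA pooled from several samples, and there were thus no replicates.

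Cholesterol is built from acetyl-CoA through mevalonate, isoprenoids, squalene and lanosterol, and long-chain fatty acids are built from the same precursor by acetyl-CoA carboxylase and fatty acid synthase, then elongated and desaturated. Many of these genes are switched on by the SREBP transcription factors, which Scap escorts from the endoplasmic reticulum when sterols are low and which the Insig proteins hold back when sterols are high. In the uterus at attachment, polyunsaturated fatty acids are also the source of prostaglandins, and the blastocyst needs sterols and fatty acids for new membranes.

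Total counts were 23850565 to 28460465 per luminal library and 18996158 to 19638852 per blastocyst library. The counts of the targeted gene went against the labels of the luminal libraries. Of *Lif*, 0 counts were found under the control label, 28 under the eKO label and 0 under the label eKO with rLif. A floor of 3 counts corresponds to 0.105 to 0.126 CPM (counts scaled to a common library size) in these libraries, so *Lif* was not detectable at this depth in the library labelled control. At this stage *Lif* is made mainly in the uterine glands, and only part of the gene is floxed, so a count over the whole gene is a weak check of its deletion here. The trophectoderm gene *Cdx2* had 15 counts in the luminal library labelled eKO and 0 in the others. Other trophectoderm genes did not share this pattern and were present in all 3 luminal libraries. In the order control, eKO and eKO with rLif, *Eomes* had 65, 60 and 47 counts and *Elf5* had 75, 76 and 5. *Gata3* had 22, 4 and 11 counts and *Tfap2c* had 124, 7 and 107. Of the inner cell mass, *Nanog* and *Pou5f1* were at 0 in all 3 luminal libraries. *Sox2* had 8, 19 and 0 counts and *Esrrb* had 0, 4 and 0. *Klf4*, also listed for the inner cell mass, was present in all 3, with 900, 520 and 783 counts. Whether the *Lif* and *Cdx2* counts bear on the other values of that library was not tested. Blastocysts had 1250 to 1736 *Lif* counts. Luminal libraries are therefore named by their labels, and each direction holds for the labels as given. Values given in threes are in the order control, eKO and eKO with rLif. The tissue labels matched *Wnt7a* of the luminal epithelium, which had 2916 to 4338 counts in the luminal libraries and 0 in blastocysts. Not every marker divided the tissues in this way. Of 11 luminal epithelial markers, 7 were higher and 4 were lower in the luminal library labelled control than in control blastocysts. Of 5 inner cell mass markers, 0 were higher and 5 were lower. The adipocyte genes *Adipoq*, *Plin1* and *Lep* were at 0 in all 6 libraries.

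Levels of different genes are compared here in TPM, in which counts are divided by exon length before they are scaled to a common total. The 33 genes together held 1407, 1157 and 1388 TPM in the luminal libraries with the control, eKO and rLif labels. In blastocysts they held 2356, 2383 and 2366 TPM in the same order, above every luminal library. The luminal sum was concentrated in few genes. The 5 most abundant members held 58.5%, 69.1% and 66.1% of it, against 35.0%, 34.5% and 34.8% in blastocysts. In the luminal library labelled control the leading members were the polyunsaturated fatty acid elongase *Elovl5* at 294.1 TPM, the sterol isomerase *Ebp* at 154.0 TPM, the very-long-chain elongase *Elovl1* at 149.4 TPM and the phosphomevalonate kinase *Pmvk* at 141.3 TPM. In control blastocysts the stearoyl-CoA desaturase *Scd2* led with 206.6 TPM, followed by *Elovl1* with 168.9 TPM, *Acat2* with 162.3 TPM and *Elovl6* with 147.2 TPM. *Fads2*, a fatty acid desaturase, had 0.658 to 2.01 TPM in luminal libraries and 0.463 to 3.05 TPM in blastocysts. It was the lowest member in every library but the luminal one labelled eKO, where *Lss* was lowest with 1.22 TPM.

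**Figure D1:**
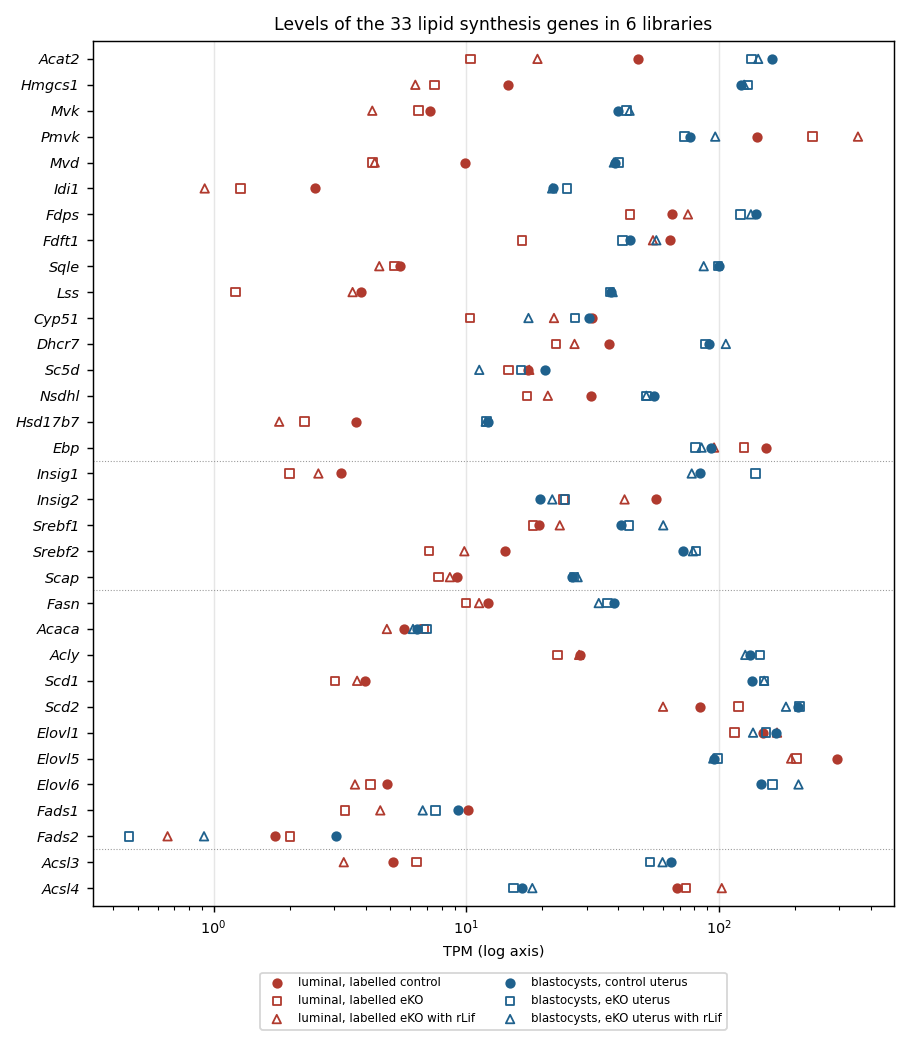
Level of each of the 33 genes in TPM (log axis) in the 3 luminal libraries (red) and the 3 blastocyst libraries (blue); each point is 1 library, and dotted lines separate cholesterol enzymes, SREBP system, fatty acid enzymes and acyl-CoA synthetases. All blastocyst points lie above all luminal points for 21 genes, the reverse holds for 4, and the red points are more widely spread for most genes.

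A promoter window of 250 bases before the RefSeq start site (GRCm38.p6) was matched for 27 of the 33 genes. No window was available for *Fdft1*, *Fads1*, *Fdps*, *Sqle*, *Scd1* and *Scd2*. Common motifs were searched on both strands, and no matches overlap in the windows printed. The CCAAT box (CCAAT) was in 17 of the 27 windows (63.0%) against 35.6% of 12332 windows, 1 for each gene of the count tables with at least 10 counts over the 6 libraries. The GC box (GGGCGG), which Sp1-type factors bind, was in 20 of 27 (74.1%) against 54.7%. A strict sterol regulatory element (TCACNCCAC), the motif of the SREBP factors, was in 1 window, that of *Hmgcs1* (3.7% against 1.03%). The STAT motif (TTCNNNGAA) was in 1 window, that of *Ebp* (3.7% against 6.12%). A match describes letters in a window, and a missing match says only that these letters are not in it. The windows of *Acat2*, *Lss* and *Cyp51* are shown since these genes were among the 5 lower in the luminal library labelled eKO. The others of the 5, *Fdft1* and *Fads1*, had no window. That of *Hmgcs1* is shown because it alone held the sterol regulatory element. Each is written on the strand of its gene, 5′ to 3′, and ends at the base before the start site, with motif matches in capitals.
Acat2: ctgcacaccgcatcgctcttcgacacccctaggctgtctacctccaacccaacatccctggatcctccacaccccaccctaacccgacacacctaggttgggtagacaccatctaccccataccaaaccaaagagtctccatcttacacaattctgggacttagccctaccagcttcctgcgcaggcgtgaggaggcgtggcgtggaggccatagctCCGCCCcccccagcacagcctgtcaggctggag
Lss: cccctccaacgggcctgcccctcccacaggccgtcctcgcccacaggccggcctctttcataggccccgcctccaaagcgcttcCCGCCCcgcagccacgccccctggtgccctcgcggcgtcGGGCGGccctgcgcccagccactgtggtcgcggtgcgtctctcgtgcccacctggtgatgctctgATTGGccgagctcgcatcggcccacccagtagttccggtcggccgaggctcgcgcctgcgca
Cyp51: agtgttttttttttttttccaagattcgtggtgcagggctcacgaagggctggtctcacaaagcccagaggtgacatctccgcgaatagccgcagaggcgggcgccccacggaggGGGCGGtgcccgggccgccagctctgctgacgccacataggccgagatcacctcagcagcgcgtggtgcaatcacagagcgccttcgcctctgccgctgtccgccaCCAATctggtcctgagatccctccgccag
Hmgcs1: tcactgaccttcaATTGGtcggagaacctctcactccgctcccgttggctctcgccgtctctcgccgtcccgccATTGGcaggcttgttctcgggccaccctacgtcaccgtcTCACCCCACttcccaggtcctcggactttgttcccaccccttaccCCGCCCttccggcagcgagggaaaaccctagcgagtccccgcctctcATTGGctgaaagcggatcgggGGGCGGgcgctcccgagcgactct
The *Acat2* window (chr17:12960726-12960975, minus strand) held a GC box that began 33 bases before the start site and no CCAAT box. The *Lss* window (chr10:76531355-76531604, plus strand) held GC boxes 166 and 127 bases and a CCAAT box 62 bases before it. The *Cyp51* window (chr5:4104698-4104947, minus strand) held a GC box at 135 bases and a CCAAT box at 29 bases. The *Hmgcs1* window (chr13:119690101-119690350, plus strand) held its sterol regulatory element at 137 bases, with CCAAT boxes at 237, 176 and 45 bases and GC boxes at 92 and 24 bases. The start site of this window lies 111 bases from the first exon base of *Hmgcs1* in the count tables.

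The comparison of the luminal libraries labelled eKO and control asks which transcripts differ when epithelial Lif is missing. Of the 33 genes, 5 were lower and 0 were higher in the library labelled eKO by more than 2-fold, with the whole exact 95% interval of the ratio beyond that limit. Of the 15694 genes tested, 9.15% were lower by this rule and 17.2% were called in either direction, against 15.2% (5 of 33) of the synthesis genes. Of the 5, 4 were cholesterol enzymes (*Acat2*, *Fdft1*, *Lss* and *Cyp51*) and the other was the fatty acid desaturase *Fads1*. The intervals cover counting error only, as each group was 1 library, and they count PCR copies as separate molecules, as the reads carried no molecular identifiers. In a dissected layer, fewer cells of a type and less RNA per cell cannot be told apart.

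*Acat2*, the cytosolic thiolase that joins acetyl-CoA units at the entry to the mevalonate pathway (chromosome 17, 12943042 to 12960725), stood at 56.9, 13.9 and 27.7 CPM in the luminal libraries with the control, eKO and rLif labels. With the eKO label it was 4.08-fold below the control label, a log2 ratio of -2.03 (interval -2.19 to -1.87). With rLif it lay between the other two, at a log2 ratio of 0.99 (0.82 to 1.17) to the library labelled eKO and -1.04 (-1.17 to -0.91) to that labelled control. *Acat2* was thus the member furthest below the control level in the library labelled eKO.

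The other 3 enzymes act around squalene and lanosterol, and each had its lowest luminal value under the eKO label. *Fdft1*, squalene synthase (chromosome 14, 63145150 to 63177793), had 104.6, 30.6 and 109.6 CPM in the luminal libraries with the control, eKO and rLif labels. *Lss*, lanosterol synthase (chromosome 10, 76531627 to 76553934), had 6.81, 2.44 and 7.68 CPM. *Cyp51*, the lanosterol demethylase (chromosome 5, 4080674 to 4104697), had 78.2, 29.1 and 67.6 CPM. Each differed less between the libraries labelled control and eKO with rLif than either did from that labelled eKO. The log2 ratios of eKO to control were -1.77 (-1.88 to -1.66) for *Fdft1*, -1.48 (-1.91 to -1.07) for *Lss* and -1.43 (-1.54 to -1.31) for *Cyp51*. *Lss* rested on 172, 70 and 200 counts.

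The *Fdft1* value is uncertain because 774 of its 2863 exon bases (27.0%) overlap exons of *Ctsb* on the opposite strand, and the strand setting of the counting is not given. *Ctsb*, a lysosomal protease, had 121457, 55182 and 266245 counts in the luminal libraries in the same order and was itself lowest in the library labelled eKO. Its part in the *Fdft1* counts was not tested. *Lss* shares 188 exon bases with 4930483K19Rik, which had 2, 0 and 0 counts.

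Among the remaining cholesterol enzymes the differences were smaller or went the other way. *Hmgcs1*, HMG-CoA synthase, had 27.4, 15.8 and 14.4 CPM (log2 ratio of eKO to control -0.79, interval -0.96 to -0.62). *Mvd*, the mevalonate diphosphate decarboxylase, had 10.5, 5.12 and 5.65 CPM (-1.04, -1.34 to -0.74), and its interval crossed the 2-fold limit. *Idi1*, the isopentenyl diphosphate isomerase, had 4.12, 2.37 and 1.84 CPM (-0.80, -1.26 to -0.34). In contrast to the genes around squalene, these 3 stayed low in the library labelled eKO with rLif. *Pmvk*, which acts just before *Mvd*, had 121.6, 228.0 and 373.6 CPM and so ran opposite to *Mvd*, with a log2 ratio of 0.91 (0.85 to 0.97) in eKO against control. *Mvk*, mevalonate kinase, stood at 6.81, 6.93 and 4.92 CPM, and its interval for eKO against control included 0. *Sqle*, squalene epoxidase, which acts between *Fdft1* and *Lss*, had 8.56, 9.23 and 8.68 CPM, with a log2 ratio of 0.11 (-0.16 to 0.37). It therefore did not share the order of the enzymes on either side of it.

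Of the later sterol enzymes, *Nsdhl*, a sterol dehydrogenase, had 39.5, 24.9 and 32.6 CPM, a log2 ratio of -0.66 in eKO against control. *Dhcr7*, the reductase that makes cholesterol from its immediate precursor, had 58.9, 41.3 and 52.7 CPM (-0.51). *Hsd17b7*, a sterol ketone reductase, had 9.55, 6.76 and 5.80 CPM (-0.50). None of these passed the 2-fold rule. *Sc5d*, a sterol desaturase, had 22.5, 21.3 and 27.9 CPM, and *Ebp* had 153.2, 141.6 and 116.4 CPM. *Fdps*, farnesyl diphosphate synthase, had 54.4, 41.9 and 76.9 CPM and was highest with rLif. In all, 13 of the 16 cholesterol enzymes had a ratio below 0 in eKO against control, 12 of them with the whole interval below 0, and 1 (*Pmvk*) had it above 0. Of all genes tested, 49.5% had a ratio below 0 and 37.5% had the whole interval below 0. The median log2 ratio of the 16 cholesterol enzymes was -0.59, beside a median of 0.00 for all genes tested.

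The genes of the SREBP system shared the lower side in part. *Insig2*, which retains Scap in the endoplasmic reticulum, had 95.4, 46.3 and 87.3 CPM, a log2 ratio of -1.04 (-1.14 to -0.95) that ended just inside the limit. *Srebf2*, which encodes the factor most linked to cholesterol genes, had 37.1, 21.0 and 31.3 CPM (-0.82, -0.97 to -0.68). *Insig1* had 122, 98 and 125 counts (-0.50, -0.90 to -0.11). These 3 genes were lowest in the library labelled eKO and closer to control with rLif. *Srebf1*, the gene of the factor most linked to fatty acid synthesis, had 47.6, 50.9 and 70.4 CPM, and *Scap* had 22.5, 21.5 and 25.8 CPM. Their intervals for eKO against control included 0.

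Of the enzymes of fatty acid synthesis proper, *Acly* and *Fasn* stood at close levels in the 2 PBS libraries, while *Acaca* did not. *Acly*, ATP citrate lyase, had 71.3, 65.7 and 86.5 CPM in the luminal libraries with the control, eKO and rLif labels. *Fasn*, fatty acid synthase, had 69.2, 63.9 and 77.9 CPM. The log2 ratio of eKO to control was -0.12 for both. *Acaca*, acetyl-CoA carboxylase, had 29.3, 39.6 and 30.6 CPM (0.43, 0.30 to 0.57) and was thus highest in the library labelled eKO. *Scd2* had 262.9, 421.7 and 228.8 CPM (0.68, 0.64 to 0.72), also highest there, while its relative *Scd1* had 11.0, 9.44 and 12.5 CPM. *Scd1* and *Scd2* are similar copies, and how reads mapping to both were counted is not given. *Elovl5* had 467.4, 364.7 and 375.3 CPM (-0.36), *Elovl1* had 162.5, 141.6 and 225.9 CPM (-0.20), and *Elovl6*, which elongates palmitate, had 16.6, 16.0 and 15.1 CPM.

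*Fads1* (chromosome 19, 10182888 to 10196872), a desaturase in the making of arachidonate, was the fatty acid enzyme that passed the rule. It had 20.1, 7.38 and 11.0 CPM in the luminal libraries with the control, eKO and rLif labels, a log2 ratio of -1.45 (-1.68 to -1.21) in eKO against control. With rLif it stayed below the control level (-0.87, -1.08 to -0.66). Its partner in the same route, *Fads2*, had 38, 56 and 18 counts, too few to separate the 2 PBS libraries (0.37, -0.25 to 1.01). The acyl-CoA synthetase *Acsl4*, which prefers arachidonate, had 205.4, 253.1 and 378.5 CPM (0.30, 0.25 to 0.35). *Acsl3* had 11.6, 16.2 and 9.03 CPM (0.48, 0.27 to 0.70), and 10.6% of its exon bases overlap those of *Utp14b*. The median log2 ratio was -0.12 over the 10 fatty acid enzymes and -0.22 over all 33 genes.

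**Figure D2:**
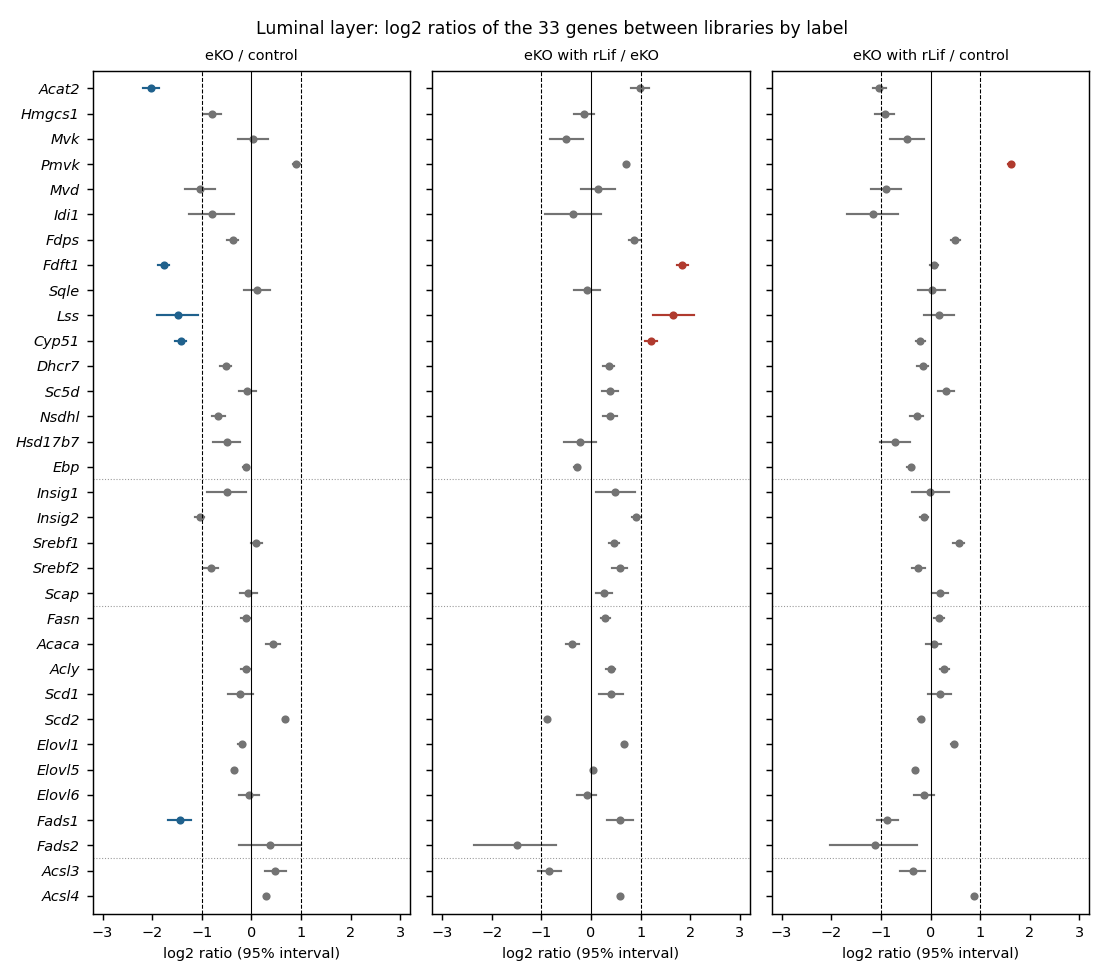
Log2 ratios of CPM between luminal libraries, named by their labels, for the 33 genes; points are the ratios, bars their exact 95% counting intervals, dashed lines the 2-fold limits, blue marks genes lower and red genes higher beyond the limit. In the left panel *Acat2*, *Fdft1*, *Lss*, *Cyp51* and *Fads1* lie below the limit, in the middle panel *Fdft1*, *Lss* and *Cyp51* lie above it, and in the right panel *Pmvk* does.

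The comparison of the luminal library labelled eKO with rLif with that labelled eKO asks which transcripts differ after Lif is supplied. Of the 33 genes, 3 were higher beyond the limit and 0 were lower, against 7.88% higher and 15.6% called in either direction among all genes tested. They were *Fdft1* at a log2 ratio of 1.84 (1.73 to 1.95), *Lss* at 1.66 (1.26 to 2.07) and *Cyp51* at 1.22 (1.10 to 1.34). All 3 were also among the 5 lower in eKO against control, but the library labelled eKO enters both comparisons, so the second is no independent check of the first. Just inside the limit were *Acat2* at 0.99, *Insig2* at 0.92 and *Fdps* at 0.88, and on the lower side *Scd2* at -0.88 (-0.93 to -0.84) and *Acsl3* at -0.84 (-1.08 to -0.61). *Fads2* had the lowest ratio (-1.50, -2.35 to -0.71), from 18 and 56 counts. All 5 SREBP system genes had intervals above 0, from 0.26 for *Scap* to 0.92 for *Insig2*, against 36.0% of all genes tested, and 3 of the 5 had them when libraries were scaled by total counts. The median of the 33 genes was 0.39, beside -0.01 for all genes tested.

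Between the luminal libraries labelled eKO with rLif and control, 1 of 33 genes was higher beyond the limit and 0 were lower. Among all genes tested 4.12% were higher and 9.16% were called in either direction. The gene was *Pmvk* (chromosome 3, 89459118 to 89469009), with a log2 ratio of 1.62 (1.56 to 1.68), or 3.07-fold. In TPM it was the most abundant of the 33 genes in both libraries labelled as eKO genotype (234.9 and 355.8) and the fourth in that labelled control. Lower than with the control label, each with an interval wholly beyond 1.5-fold, were 5 genes, all of the early cholesterol pathway apart from the desaturase *Fads1*. They were *Acat2* (-1.04), *Hmgcs1* (-0.93, -1.11 to -0.74), *Mvd* (-0.89, -1.20 to -0.60), *Idi1* (-1.16, -1.68 to -0.65) and *Fads1* (-0.87), against 10.0% of all genes tested. Higher by the same limit were *Pmvk* and *Acsl4* (0.88, 0.83 to 0.93), against 9.9%. *Fdft1* (0.07), *Lss* (0.17) and *Cyp51* (-0.21) lay near the control level. Ratios were below 0 for 19 of the 33 genes, against 7668 of the 15694 genes tested. With libraries scaled by total counts in place of TMM they were below 0 for 24. That scaling shifts every gene's ratio here by -0.18 (log2), so the higher count is not particular to the 33 genes.

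Summed levels of cell type markers also differed between these libraries, though single genes made up much of some sums. The summed level of 9 stromal markers was 463.7, 557.2 and 361.1 TPM in the luminal libraries with the control, eKO and rLif labels. That of 5 smooth muscle markers was 53.2, 36.5 and 21.3 TPM, and that of 6 immune markers 78.0, 59.0 and 104.5 TPM. Of the immune sum, *Cd68* alone made 64.6, 45.6 and 88.2 TPM. The 7 glandular markers summed to 28.6, 37.1 and 45.3 TPM, of which *Spink1* alone made 13.3, 26.5 and 16.6 TPM. In eKO against control, 3 of the 7 glandular markers were higher and 4 were lower, so the sum gives no common direction. The same holds for the immune markers (2 higher, 4 lower) and the smooth muscle markers (2 higher, 3 lower). Of the stromal markers 7 were higher and 2 were lower. The 5 endothelial markers summed to 29.9, 38.8 and 40.7 TPM, of which *Tek* made 1.85, 2.30 and 10.6 TPM. In eKO against control 4 of them were higher and 1 was lower. The 11 luminal epithelial markers summed to 5387, 9688 and 4780 TPM, of which *Calb1* alone made 328.4, 3306 and 592.3 TPM. In eKO against control 5 of these markers were higher and 6 were lower. The part of these shifts in the values of the synthesis genes was not tested. For adipocytes, 4 of the 6 markers (*Adipoq*, *Plin1*, *Lep* and *Cfd*) were at 0 in all luminal libraries, and the 6 summed to 1.35 to 1.58 TPM.

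A wider set of 81 genes of lipid metabolism was examined for the same comparison of eKO with control in the luminal layer. In it 17.2% of all genes tested were called in either direction. Among 8 measured further genes of cholesterol synthesis, 0 were called. Among 11 measured genes of sterol uptake and SREBP processing, 1 was higher and 2 were lower (27.3%). The lipoprotein receptor *Vldlr* had 19.9, 57.4 and 16.8 CPM (log2 ratio 1.53). The HDL receptor *Scarb1* had 45.6, 11.7 and 21.9 CPM (-1.96), and the sterol carrier *Stard4* had 27.3, 9.05 and 19.5 CPM (-1.59). The HDL receptor was thus lower and the VLDL receptor higher in the library labelled eKO. Among 12 genes of sterol export, storage and oxysterols, 0 were higher and 2 were lower (16.7%, near the share of all genes). *Ch25h*, a hydroxylase that makes an oxysterol from cholesterol, had 152, 10 and 112 counts (-4.11, -5.20 to -3.19), and *Nceh1*, a cholesterol ester hydrolase, had 199.8, 58.6 and 80.8 CPM (-1.77).

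Of 24 measured further genes of fatty acid synthesis, 4 were higher and 5 were lower in the library labelled eKO (37.5%), against 17.2% of all genes tested. *Thrsp*, a regulator of lipogenic enzymes, had 319.8, 3331 and 500.0 CPM, a log2 ratio of 3.38 (3.35 to 3.41). *Acss2*, which makes acetyl-CoA from acetate, had 8.71, 33.6 and 14.8 CPM (1.95). Both were highest in the library labelled eKO and much closer to control with rLif. *Elovl7*, a long-chain elongase, had 57.2, 2.82 and 36.9 CPM (-4.34, -4.68 to -4.02), and *Me1*, the malic enzyme that supplies NADPH for lipid synthesis, had 51.6, 3.41 and 40.7 CPM (-3.92, -4.23 to -3.62). In the library labelled eKO they were 20.3-fold and 15.1-fold below the control label.

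In lipid storage, 1 of 10 measured genes was higher and 2 were lower in the library labelled eKO (30.0%), against 17.2% of all genes tested. *Dgat2*, which completes triglycerides, had 352.5, 1220 and 340.6 CPM (1.79). *Pnpla2*, the main triglyceride lipase, had 182.4, 48.5 and 122.5 CPM (-1.91), and *Gpam*, which starts glycerolipid synthesis, had 16.3, 4.35 and 2.11 CPM (-1.91). The synthase of the last step and the lipase of the first thus differed in opposite directions. In fatty acid oxidation, 0 of 10 measured genes were higher and 1 was lower (10.0%, below the share of all genes). The gene was *Cpt1a*, which admits fatty acids to mitochondria, with 76.0, 31.4 and 28.1 CPM (-1.27). All 10 oxidation genes had ratios below 0, against 49.5% of all genes tested, with a median of -0.47.

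**Figure D3:**
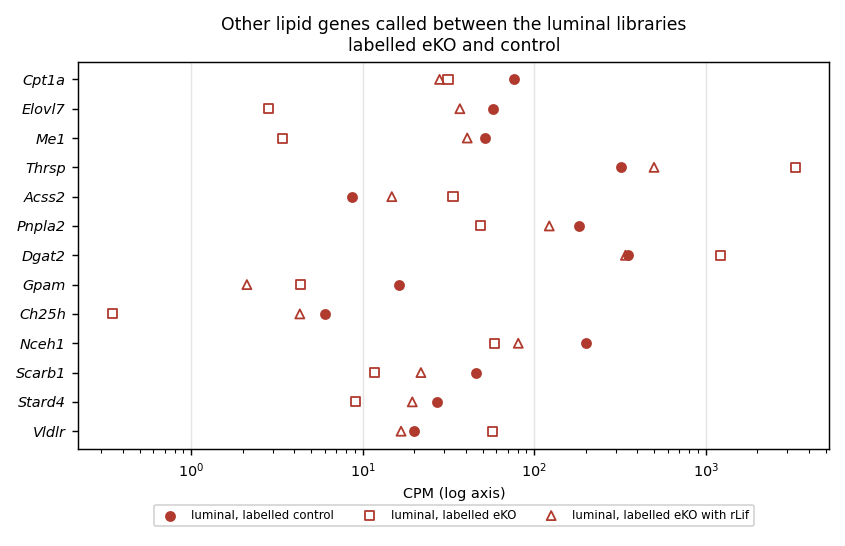
CPM (log axis) of 13 further lipid genes in the luminal libraries labelled control (filled circles), eKO (open squares) and eKO with rLif (open triangles); each point is 1 library. *Thrsp*, *Acss2*, *Dgat2* and *Vldlr* are highest in the library labelled eKO, and *Elovl7*, *Me1* and *Ch25h* are lowest there by more than 10-fold.

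In blastocysts the same 33 genes differed little between the 3 kinds of mother. From eKO females against control females, 1 of 33 was lower beyond the limit and 0 were higher, against 1.86% lower and 3.15% in either direction among 14873 genes tested. The gene was *Fads2* with 39, 6 and 12 counts in blastocysts from control, eKO and rLif-treated eKO females, a log2 ratio of -2.74 (-4.27 to -1.49) for eKO against control. It is the least abundant of the 33 in every blastocyst library, and 1 library of few counts decides the value. Between rLif-treated and untreated eKO females 0 of 33 were called, against 3.75% of all genes tested. Between rLif-treated eKO and control females 0 of 33 were called, against 4.94%. The member medians in these 3 comparisons were -0.03, 0.01 and -0.02.

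The cholesterol enzymes were close to level across the blastocyst libraries. *Hmgcs1* had 179.2, 189.1 and 184.9 CPM, *Lss* had 51.7, 50.7 and 52.7 CPM and *Hsd17b7* had 24.8, 24.2 and 24.4 CPM. *Acat2*, the member furthest from control in the luminal layer, had 149.7, 123.2 and 132.9 CPM (log2 ratio of eKO to control -0.28, -0.36 to -0.20). *Fdft1* had 56.7, 52.5 and 72.4 CPM. Only *Cyp51* and *Sc5d* of this group had a ratio beyond 1.5-fold in some comparison. Between blastocysts from rLif-treated eKO and control females, 7.17% of all genes tested were lower with the whole interval beyond 1.5-fold. *Cyp51* had 59.1, 51.6 and 34.3 CPM (rLif-treated eKO against control -0.78, -0.93 to -0.65), and *Sc5d* had 20.5, 16.3 and 11.3 CPM (-0.86, -1.10 to -0.62). Both were lowest in blastocysts from rLif-treated females, unlike in the luminal layer, where the lowest *Cyp51* value was in the library labelled eKO.

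Of the SREBP system, *Insig1* and *Srebf1* differed most between the blastocyst libraries. *Insig1*, itself a well-known SREBP target, had 99.2, 163.1 and 92.5 CPM, and so was highest in blastocysts from eKO females (log2 ratio 0.72, 0.64 to 0.80, against control, and -0.82, -0.90 to -0.73, for rLif-treated against untreated eKO). *Srebf1* had 78.5, 83.4 and 115.8 CPM and was highest in blastocysts from rLif-treated females (0.56, 0.46 to 0.66, against control). *Elovl6* followed the same order with 389.3, 428.1 and 549.6 CPM (0.50, 0.45 to 0.54). *Srebf2* had 146.6, 163.7 and 161.4 CPM, *Insig2* had 25.8, 32.0 and 28.9 CPM and *Scap* had 49.8, 50.4 and 52.9 CPM. None of these differences reached 2-fold.

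The stearoyl-CoA desaturases and the lipogenic enzymes were nearly level across the blastocyst libraries. *Scd2* had 500.5, 499.8 and 449.3 CPM, *Scd1* had 290.3, 321.4 and 326.8 CPM and *Acly* had 260.8, 283.6 and 251.9 CPM. *Fasn* had 170.4, 158.6 and 148.6 CPM, and *Acaca* had 25.6, 27.7 and 24.9 CPM. Each of these 5 genes stayed within 1.5-fold across the 3 libraries. *Elovl1* had 143.0, 128.9 and 116.3 CPM, *Elovl5* had 118.7, 121.5 and 118.1 CPM and *Fads1* had 14.3, 11.5 and 10.4 CPM. *Fads1*, 1 of the 5 genes called in the luminal layer, thus had a log2 ratio of eKO to control of -0.32 (-0.58 to -0.06) here. *Acsl3* had 113.4, 92.8 and 105.7 CPM, and *Acsl4* had 39.0, 35.8 and 43.1 CPM.

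**Figure D4:**
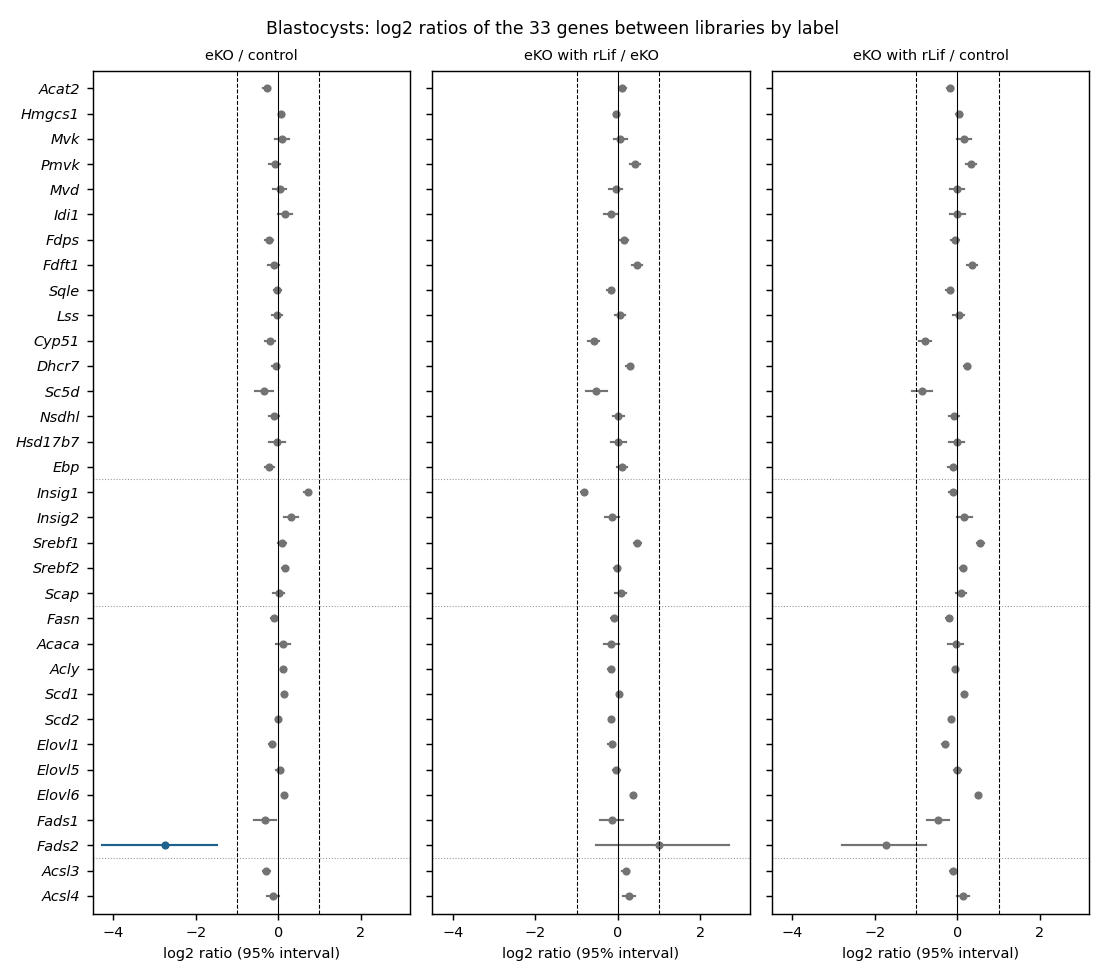
Log2 ratios of CPM between blastocyst libraries, named by the mother's label, for the 33 genes, drawn as for the luminal layer with exact 95% counting intervals and dashed 2-fold limits. Nearly all points lie close to 0; *Fads2*, with 39, 6 and 12 counts, lies below the limit in the left panel, and *Insig1* is at 0.72 and -0.82 in the left and middle panels.

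The spread over libraries can be set side by side for the 2 tissues as the highest over the lowest CPM of a gene. Its median over the 33 genes was 1.65 in the luminal layer and 1.16 in blastocysts, and it was larger in the luminal layer for 28 genes (84.8%). Over the 12855 genes with a count in every library the medians were 1.64 and 1.28, and it was larger in the luminal layer for 73.1%. The medians of the synthesis genes and of all genes were thus close in the luminal layer.

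More of the 33 genes were called between the tissues than between any groups of 1 tissue. The 2 tables were counted separately and were scaled jointly here, so these are descriptions of level. Between the luminal library labelled control and control blastocysts, 5 of 33 genes were higher and 14 were lower in the luminal layer beyond 2-fold, against 27.0% higher and 25.1% lower among 17081 genes tested. All 3 blastocyst libraries lay above all 3 luminal libraries in TPM for 21 of the 33 genes (63.6%), against 45.4% of all genes tested. The reverse held for 4 of 33 (12.1%), against 28.0%. The cholesterol enzymes were mostly on the blastocyst side (11 of 16 above all luminal libraries), and *Pmvk* and *Ebp* were on the luminal side. In CPM the log2 ratio of luminal to blastocyst was -3.68 for *Sqle*, -2.77 for *Lss*, -2.62 for *Idi1* and -2.56 for *Hmgcs1*. For fatty acid enzymes it was -4.57 for *Scd1*, -4.41 for *Elovl6*, -1.72 for *Acly* and -1.15 for *Fasn*, and 2.13 for *Elovl5*.

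Members of the same family often divided between the tissues. The 5 pairs that follow were chosen after their values were seen, so they are descriptions. *Insig2* exceeded *Insig1* in TPM by 17.7, 12.2 and 16.3 times in the luminal libraries, while in blastocysts *Insig1* exceeded *Insig2* by 4.29, 5.68 and 3.57 times. *Elovl5* exceeded *Elovl6* by 60.4, 48.7 and 53.3 times in the luminal libraries, and *Elovl6* exceeded *Elovl5* by 1.53, 1.65 and 2.17 times in blastocysts. *Acsl4* exceeded *Acsl3* by 13.2, 11.7 and 31.4 times in the luminal libraries, and *Acsl3* exceeded *Acsl4* by 3.89, 3.46 and 3.28 times in blastocysts. In these 3 pairs the predominant gene differed between the tissues in every library. *Srebf1* exceeded *Srebf2* by 1.36, 2.58 and 2.39 times in the luminal libraries, and *Srebf2* exceeded *Srebf1* by 1.76, 1.85 and 1.31 times in blastocysts. *Scd2* exceeded *Scd1* in both tissues, by 21.2, 39.7 and 16.3 times in the luminal libraries and by 1.53, 1.38 and 1.22 times in blastocysts.

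**Figure D5:**
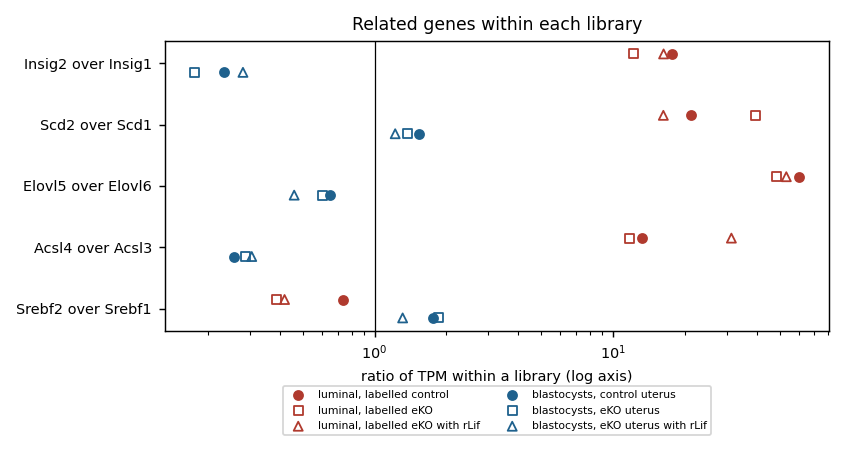
Ratio of TPM of related genes within each library (log axis) for 5 pairs; red points are luminal libraries by label, blue points blastocyst libraries, and the vertical line marks equal levels. Luminal and blastocyst points lie on opposite sides of the line for all pairs but Scd2 over Scd1, and no pair overlaps between the tissues.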

How the data were processed

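RNA was measured in 6 mouse libraries, 1 per group, and groups were taken from the sample labels. Per the labels and the study's methods, the authors made SMART-seq v4 libraries, aligned paired-end reads to GRCm38/mm10 (HISAT2) and counted them over genes in featureCounts (Subread 2.0.0). The deposited values were whole-number counts per gene, 1 table per tissue. The methods describe the output as RPKM, but each library summed to a different total of whole numbers. The deposited tables also held the exon length of each gene, used here for TPM. Neither the annotation release nor the handling of strand and of reads mapping to several places was given in the sources used here.

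Genes with at least 10 counts over a tissue's 3 libraries were kept (15694 luminal, 14873 blastocyst; 17081 over all 6). CPM used TMM-scaled library sizes (edgeR 4.0.16, R 4.3.3). Ratios of 2 libraries carry exact 95% Clopper-Pearson intervals (scipy 1.17.1), and a gene was called when the interval lay wholly beyond a log2 ratio of 1. They cover counting error only and compare libraries, not conditions. No p-value is given. On simulated data with 200 genes changed 8-fold, the rule recovered 200 with 5 false calls among 15676 genes for luminal eKO against control. The simulated counts varied by counting error only (Poisson), and the changed genes had at least 200 counts over the 3 libraries. This checks the calculation and gives no rate of false calls for real libraries, which also differ between animals. Alternatives were total counts and DESeq2 1.42.0 size factors, other count minimums, fold limits of 1.5 and 4, and edgeR's exact test at FDR 0.05 with an assumed dispersion of 0.1 or 0.04.

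All 33 genes are named. Of the other lipid genes, those called in luminal eKO against control were named, at most the 4 per list whose interval lay furthest from 0. The members, lists and rules were chosen with earlier results of these data known. Some listed genes were found under older symbols, such as *Sc4mol* for *Msmo1*. Promoter windows came from RefSeq (GRCm38.p6), taking the start site nearest to the gene's first exon base.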

Additional observations from a re-analysis of the deposited data

How the results depend on the processing

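Leaving out a replicate was not possible. No paired analysis was possible because each group was 1 library. Direction held for the median log2 ratio of the 33 genes in all 7 comparisons under every scaling and filter tried. Scaling by total counts shifted the median of all genes by -0.07 in the luminal comparison of eKO with control, -0.11 with rLif against eKO and -0.18 with rLif against control (log2), and the luminal ratios above are relative to TMM. DESeq2 size factors and the minimums of 1 and 50 counts left every count of called members within 1.5 times.

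For luminal eKO against control, the 5 called members became 11 beyond 1.5-fold, of which *Pmvk* and *Scd2* were higher and the others lower. There were 0 beyond 4-fold and 1 (*Acat2*) by edgeR's exact test at an assumed dispersion of 0.1, and the same 5 were called at 0.04. Total counts added *Insig2*. For luminal eKO with rLif against eKO, the 3 became 11 beyond 1.5-fold, of which *Scd2*, *Fads2* and *Acsl3* were lower and the others higher. There were 0 beyond 4-fold and 0 at a dispersion of 0.1. The share of all genes beyond 1.5-fold was not computed for either comparison, so these larger counts have no background beside them. Total counts dropped *Cyp51*. For luminal eKO with rLif against control, the 1 became 7 beyond 1.5-fold, 0 beyond 4-fold, 0 at a dispersion of 0.1 and 2 with total counts, which added *Acat2* on the lower side. For blastocysts, the 1 in eKO against control became 2 beyond 1.5-fold (*Insig1* was added on the higher side), 0 beyond 4-fold and 0 at a dispersion of 0.1. Beyond 1.5-fold, 1 member was called with rLif against eKO (*Insig1*) and 3 with rLif against control (*Cyp51*, *Sc5d* and *Fads2*). Between the tissues, the 19 became 10 beyond 4-fold. The spread between animals is unknown, so the assumed dispersion decides how many calls stand, and *Fads2*, *Idi1* and *Lss* are limited by their counts.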
